A study of Mus musculus with 13 samples.

Results

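A set of 10 genes of the resting hair follicle was followed through 48 h in whole back skin of male C57Bl6 mice at postnatal day 46. The labels place the skin of all arrays in telogen, when the hair cycle rests. The 10 genes are the R-spondin receptor genes Lgr5 and Lgr6, the stem cell surface marker gene Cd34, the transcription factor genes Sox9, Lhx2 and Nfatc1, and the genes of the secreted factors Bmp2, Bmp4, Bmp6 and Fgf18. They were chosen by name, and each was read from its highest-mean probe set that maps to 1 gene. All 10 had such a probe set, each had exactly 1, and all 10 passed the filter that left 14953 of 19938 genes for testing. Lights came on at ZT0 (zeitgeber time, in h) and went off at ZT12. Each of 13 arrays carried RNA pooled in equal amounts from 3 mice: 2 arrays each at ZT6, ZT10, ZT14, ZT18 and ZT22, and 3 at ZT2. All arrays came from animals of 1 strain under 1 lighting schedule, so the comparisons are dark (6 arrays) against light (7 arrays), the second day of collection against the first, and the array titled ZT46, which is the second ZT22 array, against the other 12. Because the mice of a pool were mixed, the spread between arrays is a spread between pools.

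Follicle stem cells rest in the bulge and the hair germ below it, and leave rest when a new growth phase begins. BMP ligands bind paired serine/threonine kinase receptors, which phosphorylate SMAD factors and keep these cells quiescent, while WNT signals, strengthened by R-spondins through LGR receptors, push them towards growth. BMP ligands come both from the niche within the follicle and from the surrounding dermis and fat, and FGF18 made in the inner bulge also holds the resting phase. Whole skin contains all of these compartments, so a lower level can reflect fewer cells of a type or less RNA per cell, which cannot be told apart here.

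The E-box CACGTG, the palindromic site bound by the clock activators BMAL1 and CLOCK, was looked for in the 250 bases before the annotated starts, because the study is about time of day and the gene nearest to a rhythm among the 10 was Bmp4. RefSeq promoters on GRCm38.p6 were at hand for 6 of the 10 genes (Lgr6, Cd34, Lhx2, Bmp4, Bmp6 and Fgf18). An E-box was found in 2 of them, Bmp4 and Bmp6, and in 6.02% of 32851 promoters of the same length. The first is a count of genes and the second a share of promoters, so they differ in unit. The E-box stands in capitals in both sequences, 5′ to 3′ on the strand of the gene. Bmp4 lies on the minus strand at chr14:46390670-46390919 and Bmp6 on the plus strand at chr13:38345466-38345715.
Bmp4: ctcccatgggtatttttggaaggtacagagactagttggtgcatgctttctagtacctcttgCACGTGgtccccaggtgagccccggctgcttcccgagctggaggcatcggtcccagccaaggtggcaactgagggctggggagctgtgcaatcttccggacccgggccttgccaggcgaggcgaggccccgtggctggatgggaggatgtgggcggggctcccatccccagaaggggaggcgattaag
Bmp6: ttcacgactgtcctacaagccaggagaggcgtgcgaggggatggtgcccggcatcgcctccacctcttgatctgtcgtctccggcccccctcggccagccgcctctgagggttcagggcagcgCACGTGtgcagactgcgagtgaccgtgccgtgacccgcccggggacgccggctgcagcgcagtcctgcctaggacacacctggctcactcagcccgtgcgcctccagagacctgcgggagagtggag
In Bmp4 the E-box spans bases 188 to 183 before the start, and in Bmp6 bases 127 to 122. The D-box TTATGTAA (0.819% of promoters) and the motif AGGTCA of the ROR and REV-ERB receptors (14.0%), searched on both strands, were in no window of the 6 genes. These matches describe letters and not binding.

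Pairs of arrays correlated at 0.891 to 0.992 over the 14953 genes, which are not independent replicates, and median intensities over genes lay between 472.5 and 499.2. A total of 3 arrays stood apart. The array titled ZT46 had the lowest mean correlation with the others (0.939), the first ZT2 array the next (0.953) and the first ZT22 array the one after (0.958). The first ZT2 array was the lowest of the 13 for 26.8% of all genes tested. All 8 core clock genes used as a check on the time labels were rhythmic, with a median peak-to-trough fold of 7.36. Levels are probe set intensities, differences are in log2(intensity + 16), and levels of different genes are not compared because probe sets differ in brightness.

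The first question was whether the resting follicle genes follow the 24 h cycle. None of the 10 passed the test of a 24 h curve, whereas 2.13% of the 14953 genes passed (limma F test, Benjamini-Hochberg adjusted p under 0.05). At an unadjusted p under 0.05 there were 3 of 10 (Bmp4, Lgr5 and Lgr6), against 18.6% of all genes tested. The median fitted peak-to-trough difference of the 10 was 0.20 in log2, against 0.19 over all genes tested. In simulated data a rhythm of 1.5-fold was recovered in 50% of genes and one of 2-fold in 96%, so shallow rhythms were not reliably detectable with 13 arrays. The simulated noise was drawn independently for each gene and array. In these data some arrays departed over many genes, so recovery here may differ.

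**Figure D1:**
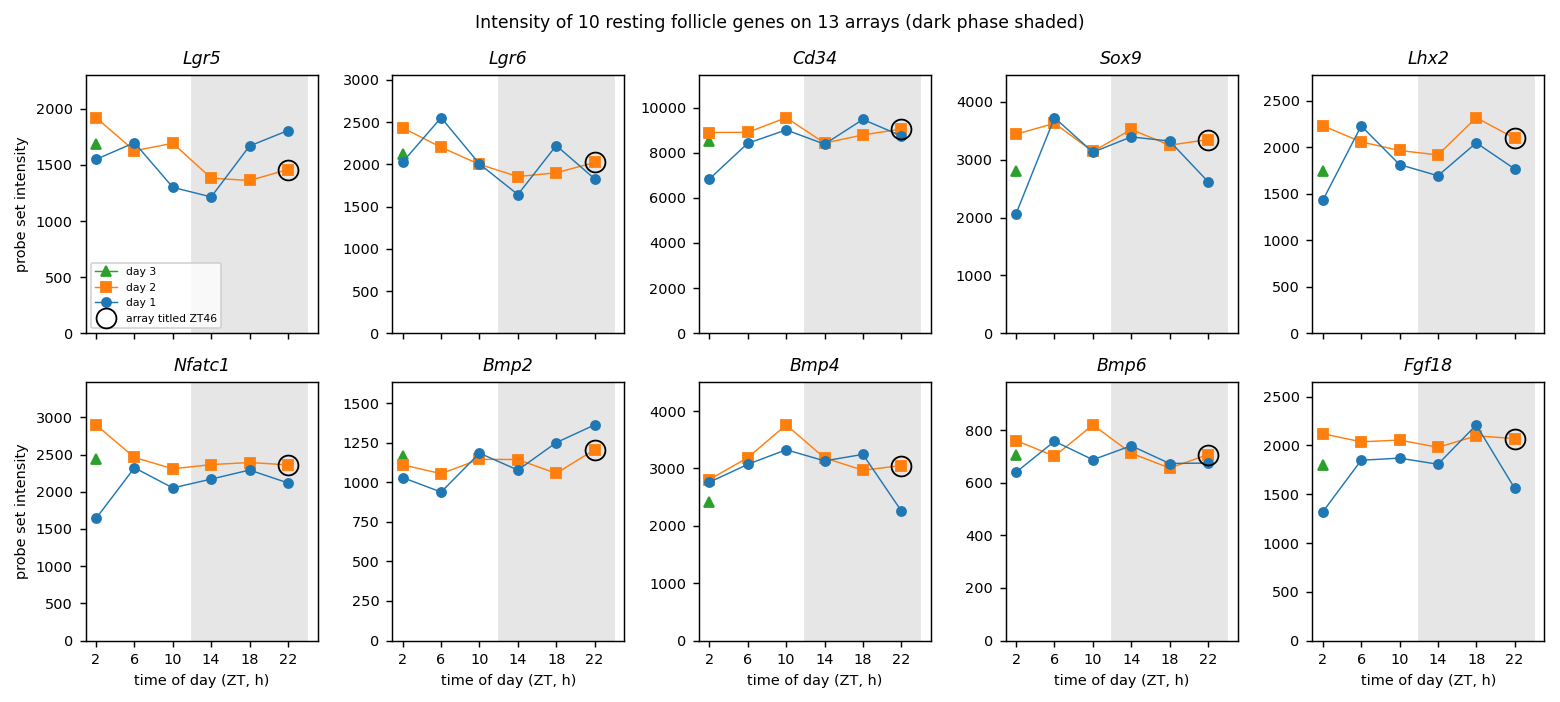
Probe set intensity (y axis, from 0) of each of the 10 genes against time of day (x axis, ZT in h), with 1 point per array, lines joining arrays of a day and the dark phase shaded. The ringed point is the array titled ZT46, which lies inside the range of the other 12 arrays in all 10 panels, whereas the first ZT2 array (day 1, left end) is the lowest point for Cd34, Sox9, Lhx2, Nfatc1, Bmp6 and Fgf18.

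Among the receptors, Lgr5 marks stem cells of the lower bulge and hair germ. Its intensity was 1549.8, 1922 and 1691 at ZT2, 1699 and 1626 at ZT6, 1301 and 1693 at ZT10, 1215 and 1383 at ZT14, 1669 and 1362 at ZT18, and 1807 and 1459 at ZT22. ZT14 had the lowest mean, 1299 ± 119 (SD, n = 2), and ZT2 the highest, 1721 ± 188 (SD, n = 3), while the 2 arrays of ZT10, of ZT18 and of ZT22 lay far apart. From peak to trough the fitted curve spanned 0.35 ± 0.11 in log2 (SE, n = 13 arrays), a fold of 1.27, with its peak at 2.07 h, and it did not pass (limma, adjusted p = 0.225).

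Lgr6 encodes a related receptor known from cells of the isthmus, above the bulge. Its intensity was 2029, 2433 and 2128 at ZT2, 2554 and 2202 at ZT6, 2005 and 2000.2 at ZT10, 1643 and 1856 at ZT14, 2223 and 1901 at ZT18, and 1829.6 and 2023 at ZT22. The lowest mean was again that of ZT14, 1749.6 ± 151 (SD, n = 2), and the highest that of ZT6, 2378 ± 248 (SD, n = 2). The curve spanned 0.30 ± 0.11 in log2 (SE), a 1.23-fold range, with its peak at 4.03 h (limma, adjusted p = 0.261).

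Cd34 encodes a sialomucin on mouse bulge cells that is also made by endothelium and dermal cells. Its intensity was 6838, 8893 and 8519.7 at ZT2, 8417 and 8901 at ZT6, 9008 and 9551 at ZT10, 8376 and 8424 at ZT14, 9471 and 8785 at ZT18, and 8744 and 9047 at ZT22. The first ZT2 array stood below all others. The coefficient of variation was 7.71% over the 13 arrays and 4.40% without that array, when the highest array exceeded the lowest by a factor of 1.14. The fitted fold was 1.08 (log2 0.11 ± 0.09, SE, limma adjusted p = 0.692), and without that array the fitted range was 0.014 in log2.

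Of the transcription factors, Sox9 is needed to set up and keep follicle stem cells. Its intensity was 2069, 3443 and 2811 at ZT2, 3729 and 3630.4 at ZT6, 3131 and 3144 at ZT10, 3396 and 3524 at ZT14, 3323 and 3253 at ZT18, and 2623 and 3349 at ZT22. The arrays agreed closely from ZT6 to ZT18 and disagreed at ZT2 and ZT22. The fitted curve spanned 1.21-fold (limma, adjusted p = 0.473), and the highest array exceeded the lowest 1.80-fold, or 1.42-fold without the first ZT2 array. The fitted range in log2 was 0.28 over 13 arrays and 0.16 without that array.

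Lhx2, which encodes a LIM homeodomain factor of bulge and germ, had 1430.1, 2232 and 1742 at ZT2, 2230.1 and 2059 at ZT6, 1815 and 1966 at ZT10, 1694 and 1918 at ZT14, 2048 and 2319 at ZT18, and 1767 and 2098 at ZT22. Nfatc1, which encodes a calcium-regulated factor that acts downstream of BMP signals in the bulge and represses the cyclin-dependent kinase gene Cdk4, had 1642, 2898 and 2443 at ZT2, 2322 and 2461 at ZT6, 2052 and 2309 at ZT10, 2169.7 and 2365 at ZT14, 2292 and 2393 at ZT18, and 2119 and 2361 at ZT22. For Nfatc1 the lowest and the highest array were both ZT2 arrays. The fitted curves of Lhx2 and Nfatc1 over 13 arrays spanned 0.058 ± 0.15 and 0.019 ± 0.14 in log2 (SE), with adjusted p-values of 0.956 and 0.994 (limma). With the first ZT2 array left out they spanned 0.092 for Lhx2 and 0.18 for Nfatc1, with limma adjusted p-values of 0.861 and 0.495.

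Among the secreted factors, Bmp4, whose product is made in the dermal papilla and the dermis, came closest to a rhythm. Its intensity was 2760.0, 2807 and 2411 at ZT2, 3072 and 3189 at ZT6, 3326 and 3759 at ZT10, 3132 and 3183 at ZT14, 3245 and 2968 at ZT18, and 2261 and 3050.4 at ZT22. On both days the highest array was that of ZT10, and no array of ZT2 reached any array from ZT6 to ZT18. Its curve spanned 0.40 ± 0.10 in log2 (SE, n = 13 arrays), a 1.32-fold range, and peaked at 11.4 h (SE 0.99 h). It did not pass (limma, adjusted p = 0.120), and its place by p was 739 of 14953. Without the array titled ZT46 the difference was 0.48 and the adjusted p 0.0528, and without the first ZT22 array they were 0.33 and 0.161. Over the alternatives run, its limma adjusted p lay between 0.0528 and 0.562.

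Bmp2, which is made by fat and dermal cells as well as by the follicle, had its lowest mean at ZT6, from 938 and 1054, and its highest at ZT22, from 1362 and 1206. Its other arrays lay between 1029 and 1250.3. The fitted peak was at 19.3 h, for a 1.15-fold range (limma, adjusted p = 0.418). Bmp6, a ligand of the inner bulge, ranged from 640.2 at the first ZT2 array to 820.1 at the second ZT10 array. Its coefficient of variation was 6.90% over 13 arrays, the lowest of the 10. With that first ZT2 array left out it was 6.45%, above the 4.40% of Cd34. Its fitted fold was 1.11 (adjusted p = 0.463, limma).

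Fgf18, which encodes the fibroblast growth factor of the inner bulge, had 1319, 2121 and 1803 at ZT2, 1849 and 2037 at ZT6, 1870.4 and 2055 at ZT10, 1807 and 1981 at ZT14, 2211 and 2098 at ZT18, and 1561 and 2071 at ZT22. The low arrays were the first of ZT2 and the first of ZT22. Its fitted curve spanned 1.15-fold (limma, adjusted p = 0.600). Without the first ZT2 array the fitted range of Fgf18 was 0.061 in log2, against 0.20 with it.

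Dark and light were compared next. None of the 10 genes passed (limma, adjusted p under 0.05), and 0.0201% of all genes tested did. Of the 8 core clock genes, all rhythmic, only Cry1 passed this test. Nr1d1, with a fitted 8.52-fold rhythm, had an adjusted p of 0.105, so this comparison can miss strong rhythms. Lgr6 was the only member with an unadjusted p under 0.05, against 8.28% of all genes tested, or 6.25% for those lower in the dark. Its intensity had a lowest, median and highest value of 1643, 1879 and 2223 in the dark, against 2000.2, 2128 and 2554 in the light. The ranges overlapped, because 2 of the 6 dark arrays, the first of ZT18 and the second of ZT22, lay above the lowest light array. The difference in log2 was -0.20 ± 0.08 (SE, 6 dark and 7 light arrays), with a 95% interval of -0.36 to -0.03 before adjustment and an adjusted p of 0.534.

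Lgr5 had the same sign, -0.15 ± 0.10, with an interval of -0.36 to 0.06. Bmp2 was higher in the dark by 0.12 ± 0.07, with an interval of -0.04 to 0.27, from a mean intensity of 1182 ± 115 (SD, n = 6) in the dark and 1089 ± 87.5 (SD, n = 7) in the light. The other 7 genes had differences between -0.058 and 0.073. In sign, 4 of 10 were lower in the dark, against 59.8% of all genes tested. When the first ZT2 array was left out, 9 of 10 were lower in the dark, against 60.9% of all genes tested. Across the 10 genes no interval extended beyond 0.36 in absolute value on the log2 scale. Without the first ZT2 array, which is a light array, the differences of Cd34, Sox9, Lhx2, Nfatc1 and Fgf18 were between -0.074 and -0.0073, whereas they were between 0.0040 and 0.073 with it.

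**Figure D2:**
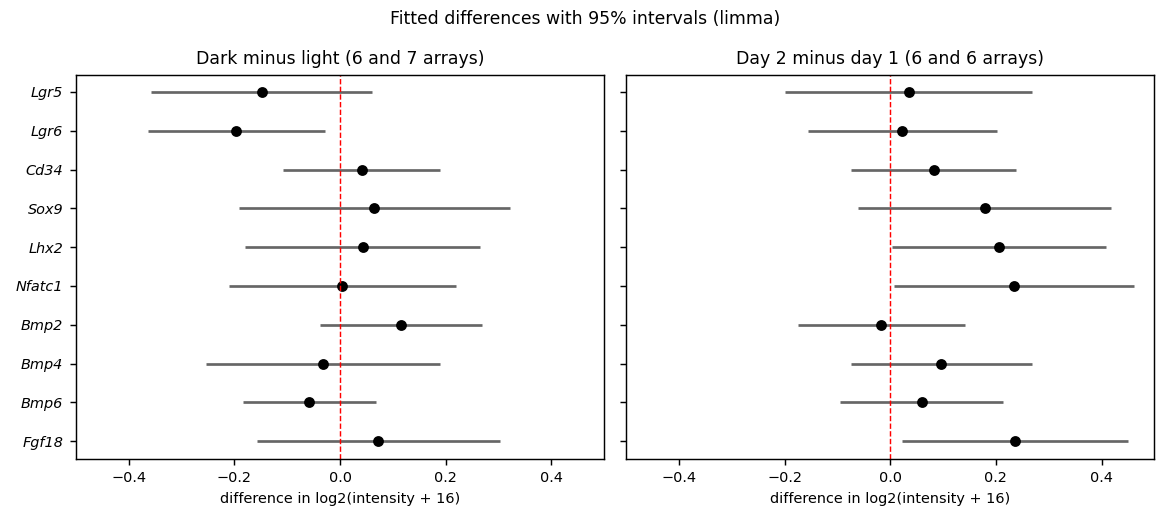
Dark minus light (left) and day 2 minus day 1 (right) for the 10 genes, as differences in log2(intensity + 16) with 95% limma intervals that are not adjusted for the number of genes. The interval excludes 0 for Lgr6 on the left and for Lhx2, Nfatc1 and Fgf18 on the right, and none of these differences passed after adjustment.

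The second day was compared with the first at the 6 matched times of day. None of the 10 genes passed the adjusted test, nor did any of the 14953 genes (0% called, limma), although 976 genes had an unadjusted p under 0.05. Of the 10 genes, 9 had a positive difference, against 53% of all genes tested. Leaving out the first ZT2 array gave 7 of 10, against 47.4% of all genes tested, with Lgr5 at -0.019 and Lgr6 at -0.024. In this paired fit, leaving out an array also takes its partner of the same hour out of the comparison. Leaving out the second ZT2 array gave the same values for Lgr5 and Lgr6, so the change cannot be credited to either ZT2 array alone. Lhx2, Nfatc1 and Fgf18 had an unadjusted p under 0.05, against 6.53% of all genes tested, or 3.06% for those higher on day 2. Nfatc1 was higher on day 2 at all 6 times of day. Its intensity had a lowest, median and highest value of 2309, 2379 and 2898 on day 2, against 1642, 2144 and 2322 on day 1, so only the bottom of the day 2 range overlapped the top of the day 1 range. The difference was 0.23 ± 0.10 in log2 (SE, 6 arrays a day), with an adjusted p of 0.603.

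Fgf18 had a lowest, median and highest intensity of 1981, 2063 and 2121 on day 2, against 1319, 1828 and 2211 on day 1. The day 2 arrays were close together, with an SD of 49.0, while the SD of the day 1 arrays was 303. Its difference was 0.24 ± 0.09 in log2 (adjusted p = 0.603, limma), and that of Lhx2 was 0.21 ± 0.09 (adjusted p = 0.603). Without the first ZT2 array, and so without ZT2 in the comparison, the differences were 0.15 for Fgf18, 0.12 for Nfatc1 and 0.12 for Lhx2. That of Sox9 was 0.068 in place of 0.18. None of the 10 then had an unadjusted p under 0.05. Bmp2 was the exception in sign, with a difference of -0.017 ± 0.070.

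The array titled ZT46, labelled telogen like the others, carried high transcripts of the growing hair. Its 35 tested keratin associated protein genes, which encode matrix proteins of the hair shaft, were all the highest of the 13 arrays, and so were 19 of 20 tested genes of the hair shaft, matrix and inner root sheath list, against 8.62% of all genes tested. The hair keratin gene Krt33b had an intensity of 4136 on this array, against 725 to 1096 on the other 12. The 44 keratin associated protein genes together summed to 204782, against 17276 to 30196 on the other 12 arrays. This array was singled out with that known, so the values are a description with no test.

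On the same array none of the 10 resting follicle genes was the highest or the lowest of the 13, where 8.62% of all genes tested were highest and 12.8% lowest. Of the 10, 8 lay above the median of the other arrays, against 40.4% of all genes tested. Their median difference from the median of the other 12 arrays was 0.027 in log2, against 2.38 for the hair shaft list and -0.036 for all genes tested. Lgr5 had the lowest difference, -0.17, with an intensity of 1459 that placed it 9th of 13. Lhx2 and Fgf18 had the highest, 0.11 and 0.10, with intensities of 2098 and 2071 that placed both 4th. Bmp6 on that array was 707 and Sox9 was 3349, each 6th of 13.

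Set against the first ZT22 array, which shares its time of day, the array titled ZT46 was higher by 0.43 in log2 for Bmp4, 0.40 for Fgf18 and 0.35 for Sox9, and the difference was -0.31 for Lgr5. For Bmp4, Sox9 and Fgf18 the first ZT22 array was the lowest dark array. Other markers of bulge, isthmus and hair germ also stayed inside the range of the other arrays, with 0 of 24 highest and 0 of 24 lowest on the array titled ZT46. Of all genes tested, 8.62% were highest and 12.8% lowest on that array. The skeletal muscle markers were lower there, with 9 of 10 at their lowest and a summed intensity of 60112, against 67989 to 93382 on the other arrays. The part of these other tissues in the values of the 10 genes was not tested.

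**Figure D3:**
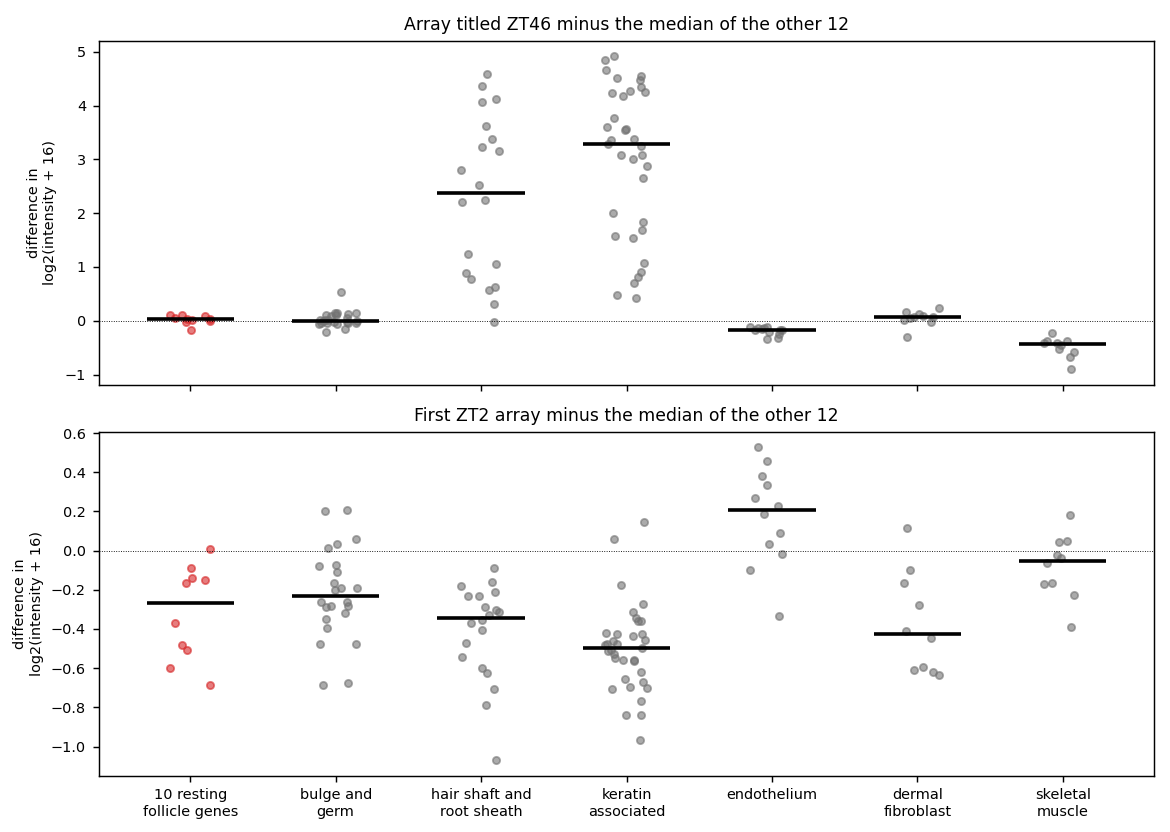
Difference in log2(intensity + 16) between 1 array and the median of the other 12, for the array titled ZT46 (top) and the first ZT2 array (bottom), with 1 point per gene and a bar at the median of each list. On the array titled ZT46 the hair shaft and keratin associated genes lie at medians of 2.38 and 3.28 while the 10 resting follicle genes lie at 0.027, and on the first ZT2 array the 10 genes lie at -0.27.

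The array with the largest departures for the resting follicle genes was the first ZT2 array. It was the lowest of the 13 for 6 of the 10 (Cd34, Sox9, Lhx2, Nfatc1, Bmp6 and Fgf18), and 26.8% of all genes tested were lowest there. None of the 10 was the highest, and 14.1% of all genes tested were. The differences from the median of the other arrays were -0.68 in log2 for Sox9, -0.60 for Fgf18, -0.51 for Nfatc1, -0.48 for Lhx2 and -0.37 for Cd34. Lgr5 and Lgr6 did not share them, with -0.087 and 0.011. The other ZT2 arrays had 3443 and 2811 for Sox9 and 2121 and 1803 for Fgf18, so the low level did not recur at that hour to the same extent.

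Other lists moved on that array too, and their part in the values of the 10 genes was not tested. Of all genes tested, 26.8% were lowest on that array and 14.1% highest. Dermal fibroblast markers were lowest for 8 of 10, with a summed intensity of 61410, against 76070 to 87142 on the other arrays. Also lowest there were 26 of 35 keratin associated protein genes, 11 of 20 of the hair shaft list and 10 of 15 BMP inhibitors. Fewer were lowest in some other lists, with 0 of 10 skeletal muscle and 1 of 11 dermal papilla genes. Bulge and germ markers were lowest for 11 of 24, with a sum of 54282, against 58898 to 64356. Krt15, Itga6, Hopx, Krt19 and Krt24 of this list went the other way. They lay 0.21, 0.20, 0.058, 0.036 and 0.015 in log2 above the median of the other arrays. Endothelial markers were highest for 6 of 12, with a sum of 14356, against 11220 to 13536 on the other arrays. Robo4, Tie1 and Vwf of this list lay below the median of the other arrays, at -0.33, -0.10 and -0.017 in log2. Cd34, which endothelium also makes, was lowest, and the part of endothelium in its level was not tested. The median over all genes tested was -0.029 on this array.

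Levels of the 10 genes were then set against each other over the arrays, as a description. Of 45 pairs, 7 had a Pearson r above 0.7 over 13 arrays, and 0 had one without the first ZT2 array. The share of such pairs among all genes tested is not given here, and 26.8% of all genes tested were lowest on that array. These 7 pairs joined Sox9, Lhx2, Nfatc1, Fgf18 and Cd34. Sox9 and Fgf18 had r = 0.84 and a Spearman rho of 0.42, and r was 0.59 without the first ZT2 array and 0.20 without the 2 arrays farthest from the median of Sox9. Lhx2 and Fgf18 had r = 0.83 and rho = 0.78, and r stayed at 0.67 without the first ZT2 array and at 0.65 without the 2 arrays farthest for Lhx2. Lgr5 and Lgr6 had r = 0.66 with and without the first ZT2 array, a rho of 0.52 and an r of 0.54 without the 2 arrays farthest for Lgr5. Sox9 and Bmp2 ran opposite without the first ZT2 array, with r = -0.74, and had r = -0.20 over all 13 arrays.

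**Figure D4:**
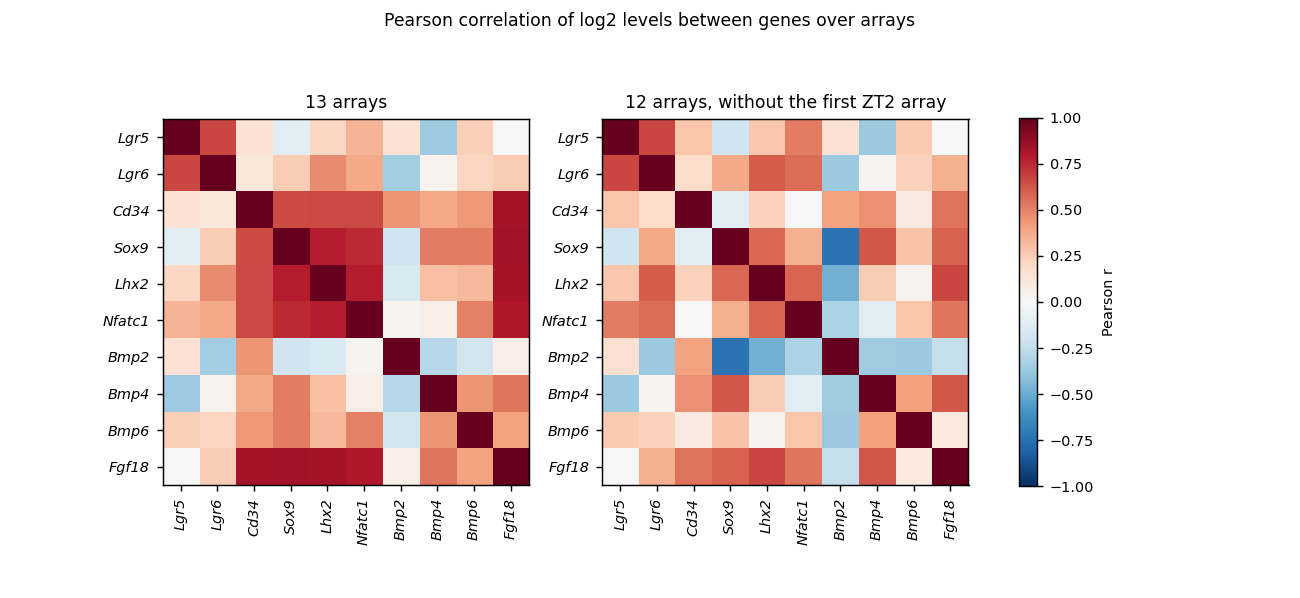
Pearson r of log2 levels for each pair of the 10 genes (colour scale from -1 to 1), over 13 arrays on the left and over 12 arrays without the first ZT2 array on the right. The block of high values among Cd34, Sox9, Lhx2, Nfatc1 and Fgf18 on the left holds 7 pairs above 0.7, and no pair is above 0.7 on the right.

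Among the 14953 genes, those whose levels were most like a member's over the 13 arrays differed between the members. For Lgr6 they were Foxi3, Slc2a5 and Slc26a9, with r of 0.93, 0.92 and 0.90, and without the first ZT2 array 0.93, 0.92 and 0.94. For Lgr5 they were Pakap, Aldh1l2 and Yeats2, with r between 0.92 and 0.93 with and without that array. For Bmp4 they were Faxc, Ube2q1 and Rras, with r of 0.95, 0.92 and 0.90 that moved by less than 0.01 without that array. For Cd34 they were Olfr1233, Scara3 and Cfap77, with r of 0.93 each, and 0.74, 0.78 and 0.73 without it.

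The same measure gave Cherp, Zc3h3 and Llgl1 for Sox9 and Gorasp1, Ildr1 and Poldip3 for Lhx2, with r from 0.91 to 0.94. Without the first ZT2 array r was 0.89 to 0.90 for Sox9 and 0.83 to 0.92 for Lhx2. It gave Phf2, Fmnl1 and Arhgef2 for Nfatc1 and Rasgrp4, Nckap5l and Stat6 for Fgf18, with r from 0.95 to 0.97, and from 0.89 to 0.93 without that array. It gave Dda1, Canx and Adamts1 for Bmp2 and Foxj3, Mta1 and Brd3 for Bmp6, with r from 0.84 to 0.89, and from 0.82 to 0.86 without it. These are the highest of many correlations over 13 arrays and share the arrays that stand apart.

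The remaining genes of the pathways were read from lists. Of the other markers of bulge, isthmus and hair germ, 1 of 24 had a 24 h rhythm, against 2.13% of all genes tested. It was Cxcl14, a chemokine gene of keratinocytes, whose fitted curve peaked at 22.6 h and spanned 2.53-fold (limma, adjusted p = 0.00128). The median peak-to-trough fold of that list was 1.14, the same as the 1.14 of all genes tested. None of the 24 passed in dark against light or between days, against 0.0201% and 0% of all genes tested.

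In the BMP branch, 0 of 6 other ligands, 0 of 6 receptors, 0 of 12 SMAD and target genes and 0 of 15 inhibitors passed the 24 h test, the dark test or the day test. Of all genes tested, 2.13%, 0.0201% and 0% passed these tests, in that order. The smallest p among the ligands was that of Bmp3, which spanned 1.28-fold with a peak at 14.7 h (limma, adjusted p = 0.0973). Id3, a direct target of BMP-activated SMADs, spanned 1.26-fold (adjusted p = 0.308). Sostdc1 and Bambi, a secreted and a membrane inhibitor, had folds of 1.20 and 1.17 with adjusted p-values of 0.278 and 0.337.

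In the FGF list, 1 of 18 genes passed the 24 h test, which 2.13% of all genes tested passed. Fgf2, a growth factor gene, spanned 1.34-fold with a peak at 9.81 h (limma, adjusted p = 0.0331). Etv5, a target of FGF signals, spanned 1.44-fold (adjusted p = 0.138). In the WNT and R-spondin list, 1 of 26 passed. It was Wnt5a, a ligand gene, which spanned 1.44-fold with a peak at 22.3 h (limma, adjusted p = 0.0150). In the calcineurin and NFAT list, which also holds Cdk4, 0 of 11 passed, and Nfatc2, a relative of Nfatc1, spanned 1.29-fold (adjusted p = 0.220).

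Lists of other tissues in whole skin, among them the dermis and fat that also supply BMP ligands, were read the same way. The share of all genes tested that passed the 24 h test was 2.13%. Among 11 dermal papilla genes Crabp1, a retinoic acid binding protein gene, passed, peaking at 2.33 h over a 1.44-fold range (limma, adjusted p = 0.0483). Among 9 adipocyte genes the lipid droplet genes Cidec and Plin4 passed, with peaks at 11.9 h and 10.8 h and ranges of 1.51-fold and 1.57-fold. Among 7 epidermal genes the cornified envelope gene Ivl passed, peaking at 21.5 h over a 1.60-fold range. None of 10 dermal fibroblast, 12 endothelial, 9 sebaceous or 10 skeletal muscle genes had a 24 h rhythm by the same test.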

How the data were processed

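RNA of 3 mice per array was hybridised to Affymetrix whole-transcript arrays, per the labels' protocols. The authors deposited intensity values on a linear scale, 1 per probe set. The submitters' processing notes name PLIER 2.0 and Affymetrix Expression Console 1.1.1. Neither the build nor the normalization between arrays is given in the sources used here. The platform annotation paired 21789 of 35557 probe sets with a single gene, and 21698 of these were updated through the gene identifier. The highest-mean probe set was kept for each of 19938 genes. An offset of 16 was added before taking log2, and the 25% of genes with the lowest mean were dropped.

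The 24 h curve (cosine and sine, 13 arrays), dark minus light (13 arrays) and day 2 minus day 1 with time of day as a factor (12 arrays, without the third ZT2 array) were fitted over 14953 genes with limma 3.58.1 in R 4.3.3, with Benjamini-Hochberg adjustment and a threshold of 0.05. All arrays are labelled as separate pools, and their number limits the precision. The fits were tested on simulated data with 200 changed genes. The members and the lists were chosen with earlier results of these data known. The named genes are the 10 members, called genes of each list or otherwise those with the smallest 24 h p, and the 3 genes most like each member. From a list the text names only some of them. Alternatives covered the offset, the filter, quantile and median scaling, the variance prior, day as a block, the 6 times of day as a factor, and leaving out each array.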

Additional observations from a re-analysis of the deposited data

Results flagged for a closer look

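Within the dark arrays and within the light arrays of each gene, the end value was compared with its nearest neighbour by Dixon's criterion. Of 20 such groups, 4 held an array far from the others, where chance gives about 1 in 20 for independent groups. The groups of different genes share the same arrays and are not independent, so the count is a description. Among the light arrays, the first ZT2 array was low for Cd34, with an intensity of 6838, and for Fgf18, with 1319. Among the dark arrays, the first ZT22 array was low for Sox9, with 2623, and for Bmp4, with 2261. The array titled ZT46 was not among them for any of the 10 genes.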

How the results depend on the processing

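None of the 10 genes passed the 24 h, dark against light or day test under any alternative run, and the lowest adjusted p was 0.0528, for the 24 h curve of Bmp4 without the second ZT22 array. The number of the 10 genes that lay outside the other arrays on the array titled ZT46 was 0 under the 6 alternatives that gave one. The changes of offset and filter keep the order of the arrays within a gene, so they could not alter it. Only quantile and median scaling could. Over all genes tested, 318 genes had a 24 h rhythm, against 44 with the 6 times of day as a factor, and 128 to 422 with 1 array left out (lowest without the first ZT14 array, highest without the first ZT2 array). Leaving out either ZT6 array gave 193 (first) or 183 (second), either ZT10 array 133 or 202, the second ZT14 array 131, the second ZT2 array 195 and the third 203. Dark against light called 3 genes, 1 with the dimmest 50% left out, and 1 to 26 with 1 array left out (1 for the second ZT18 array, 6 for the first ZT2 array, 26 for the first ZT22 array). With day as a replicate block the 24 h count was 212 and the dark count 2, and none of the 10 genes passed.

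Small differences that did not pass changed sign. With the first ZT2 and second ZT22 arrays both left out, an alternative chosen after seeing the data, dark minus light called 1 gene and was -0.020 for Cd34, -0.041 for Sox9, -0.044 for Lhx2, -0.084 for Nfatc1 and -0.026 for Fgf18, and day 2 minus day 1 was -0.066 for Lgr6 and -0.0025 for Sox9. With 1 array left out, dark minus light ranged from -0.012 to 0.068 for Cd34, -0.030 to 0.12 for Sox9, -0.025 to 0.085 for Lhx2, -0.074 to 0.062 for Nfatc1, -0.086 to 0.044 for Bmp4 and -0.0073 to 0.14 for Fgf18. In the day comparison, each array left out took its hour with it. Day 2 minus day 1 then ranged from -0.033 to 0.10 for Lgr5, -0.024 to 0.072 for Lgr6 and -0.054 to 0.027 for Bmp2. Against a 24 h curve of the other 12 arrays, the array titled ZT46 differed by 0.26 for Sox9 and 0.27 for Bmp4. The labels give no replicate numbers, so the day served as the block.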
